A study of Mus musculus with 6 samples.

Results

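The tectorial membrane genes examined here were Tecta, Tectb, Otog, Otoa and Oc90, which encode secreted or membrane-bound proteins of the extracellular gels of the inner ear. They were taken by name as every probe set that the array annotation assigns to 1 of these genes alone. Each gene had 1 such probe set, so 5 of the 12393 genes and 5 of the 22626 probe sets measured were members. Cochleae of Igf1 null mouse embryos (Igf-1-/-, both alleles of the gene disrupted) were compared with those of wild type embryos (Igf-1+/+), both from matings of heterozygous parents on a C57BL/6J background and collected at embryonic day 18.5. Each sample was RNA pooled from 4 cochleae, dissected with the otic capsule and without the vestibular organs. There were 3 pools of each genotype, and each was hybridised to 1 single-colour Affymetrix array. The null alleles were present in all tissues of the embryo, not in the ear alone. In pooled tissue, fewer cells of a type and less RNA per cell cannot be told apart.

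The tectorial membrane is an acellular sheet that lies over the hair cells of the organ of Corti and couples sound vibration to their hair bundles. In the mouse its non-collagenous part is built largely from the tectorins, which are zona pellucida domain proteins secreted late in gestation by the supporting cells and by the greater epithelial ridge, the thickened epithelium beside the organ of Corti. Collagens form its fibres, otogelin is a further glycoprotein shared with the gels of the vestibule, and otoancorin anchors the gel to the surface of non-sensory cells. Oc90 encodes the main protein of otoconia, the mineral grains of the vestibule, and was included as a mark of how the tissue was dissected.

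The promoters of both tectorin genes and of Otog are shown, and that of Otoa is described below. Each runs from 250 bases before to 50 bases after the annotated start site, 5′ to 3′ on the gene's own strand, and was taken from RefSeq (build GRCm38.p6). Capitals mark a TATA box (TATAAA or TATATA), an E-box (CANNTG) or a GATA motif (AGATAA or AGATAG, and likewise TGATAA or TGATAG) on either strand, and no matches overlapped.
Tecta, chr9:42401641-42401940, minus strand: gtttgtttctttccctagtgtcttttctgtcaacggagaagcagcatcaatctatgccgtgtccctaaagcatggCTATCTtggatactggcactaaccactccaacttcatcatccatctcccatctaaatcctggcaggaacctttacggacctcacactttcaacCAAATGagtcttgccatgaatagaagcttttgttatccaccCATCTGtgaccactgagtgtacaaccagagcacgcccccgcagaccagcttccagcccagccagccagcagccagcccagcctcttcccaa
Tectb, chr19:55180476-55180775, plus strand: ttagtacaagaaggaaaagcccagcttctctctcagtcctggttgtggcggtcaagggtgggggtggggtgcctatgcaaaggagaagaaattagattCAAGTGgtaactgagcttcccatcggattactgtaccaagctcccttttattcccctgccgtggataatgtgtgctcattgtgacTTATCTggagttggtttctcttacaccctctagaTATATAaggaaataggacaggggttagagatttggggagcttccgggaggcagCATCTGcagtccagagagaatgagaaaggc
Otog, chr7:46240737-46241036, plus strand: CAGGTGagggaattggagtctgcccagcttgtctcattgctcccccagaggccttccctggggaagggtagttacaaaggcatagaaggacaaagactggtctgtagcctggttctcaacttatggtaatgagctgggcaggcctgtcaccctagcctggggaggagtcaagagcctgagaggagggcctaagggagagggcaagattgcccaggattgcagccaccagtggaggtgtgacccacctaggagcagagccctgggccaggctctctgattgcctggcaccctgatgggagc

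The Tectb promoter held 1 TATA box, at -33 from the start site, 2 E-boxes and 1 GATA match, at -67. That of Tecta held 2 E-boxes and 1 GATA match, at -175, and no TATA box in this window. RefSeq lists 2 promoters for Tecta, and the one shown is at the outer end of the gene. The Otog promoter held 1 E-box and neither of the other motifs, as did the Otoa promoter. Of 32851 promoters of the same length in the RefSeq table, 17.1% held a TATA box, 72.3% an E-box and 29.8% a GATA match. The matches are a description of these letters and were not tested for any use by the cells.

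Array medians of the deposited log2 signals ran from 5.61 to 6.36 in null pools and from 6.09 to 6.30 in wild type pools, so the arrays were brought to 1 distribution by quantile normalization, and levels below are log2 signals after that step. Igf1 itself was lower in each null array than in each wild type array at its 3 probe sets, by 0.46, 0.99 and 0.55 on the log2 scale (limma, adjusted p = 0.887, 0.600 and 0.889). The source field of wild type replicate 2 gives its age as day 18.6, where its other labels give 18.5. That of the 3 null samples reads +/+ where their titles and descriptions read -/-, and these levels do not settle the genotype. Of markers of the cochlea, 11 of 14 genes of supporting cells and the greater epithelial ridge were above background on all 6 arrays, among them Epyc, Sox2 and Gjb2. Background was the 95th percentile of 96 probe sets for genes of nose, sperm, egg, milk, enamel and lens, which lay between 3.58 and 3.94 in null arrays and between 3.49 and 4.22 in wild type arrays. All 5 members were above it on all 6 arrays.

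All 5 members had a higher mean log2 signal in Igf1 null cochleae than in wild type cochleae, and none of the 5 passed an adjusted p of 0.05. Mean differences of 0.25 to 0.27 were found for the tectorin genes and Otoa, 0.67 for Otog and 0.86 for Oc90. Across all 22626 probe sets 0% passed that threshold (limma, Benjamini-Hochberg adjustment), and 50.7% had a higher null mean, with a median difference of 0.0041. At an unadjusted p under 0.05, 1 member, Oc90, was higher in the null pools, as were 2.42% of all probe sets, and 0 members were lower at that p, as were 2.58% of all probe sets. Under some other settings Oc90 did not keep that unadjusted p, as given with its values.

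Tecta encodes alpha-tectorin, the large zona pellucida domain protein of the tectorial membrane. Its log2 signal was 9.29, 9.13 and 9.75 in null replicates 1 to 3, against 9.55, 8.75 and 9.06 in wild type replicates 1 to 3. The groups overlapped, since wild type replicate 1 lay above null replicates 1 and 2. Tecta averaged 9.39 ± 0.32 in null and 9.12 ± 0.41 in wild type cochleae (SD, n = 3 each), a difference of 0.27 ± 0.28 (SE) or 1.21-fold, with a 95% interval from -0.42 to 0.97 (limma, adjusted p = 0.981). The interval of the ratio reached from 0.745-fold to 1.95-fold. Without wild type replicate 2 the difference was 0.085, without null replicate 3 it was 0.092, and without wild type replicate 1 it was 0.49.

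Tectb encodes beta-tectorin, the smaller partner of alpha-tectorin in the striated-sheet matrix of the mouse membrane. Its log2 signal was 8.90, 8.62 and 9.11 in null replicates 1 to 3, against 8.96, 8.35 and 8.52 in wild type replicates 1 to 3. As with Tecta, wild type replicate 1 stood among the null pools and the groups overlapped. Tectb averaged 8.87 ± 0.25 in null and 8.61 ± 0.32 in wild type cochleae (SD, n = 3 each), a difference of 0.26 ± 0.22 (SE) or 1.20-fold, with a 95% interval from -0.30 to 0.82 (limma, adjusted p = 0.981). It was 0.13 without wild type replicate 2, 0.15 without null replicate 3 and 0.44 without wild type replicate 1.

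Otog encodes otogelin, a glycoprotein of the tectorial membrane and of the gels over the vestibular sensory patches. Its log2 signal was 7.29, 7.27 and 8.16 in null replicates 1 to 3, against 7.06, 6.58 and 7.05 in wild type replicates 1 to 3. Each null array lay above each wild type array, with null replicate 3 well above the other 2 null arrays. Otog averaged 7.57 ± 0.51 in null and 6.90 ± 0.27 in wild type cochleae (SD, n = 3 each), a difference of 0.67 ± 0.30 (SE) or 1.60-fold, with a 95% interval from -0.091 to 1.44 (limma, adjusted p = 0.980). Without null replicate 3 the difference was 0.38.

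Otoa encodes otoancorin, which in the mouse cochlea attaches the tectorial membrane to the spiral limbus. Its log2 signal was 6.93, 6.57 and 7.14 in null replicates 1 to 3, against 6.68, 6.33 and 6.88 in wild type replicates 1 to 3. Null replicate 2 lay below wild type replicates 1 and 3, so the groups overlapped. Otoa averaged 6.88 ± 0.29 in null and 6.63 ± 0.28 in wild type cochleae (SD, n = 3 each), a difference of 0.25 ± 0.22 (SE) or 1.19-fold, with a 95% interval from -0.31 to 0.81 (limma, adjusted p = 0.981). Leaving out wild type replicate 2 gave 0.096 and leaving out null replicate 3 gave 0.12, while it was 0.40 with null replicate 2 left out, 0.37 with wild type replicate 3 left out and 0.049 with array weights.

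Oc90 had a log2 signal of 10.88, 10.72 and 11.67 in null replicates 1 to 3, against 10.46, 9.96 and 10.26 in wild type replicates 1 to 3. Each null array lay above each wild type array, and null replicate 3 again stood highest. Oc90 averaged 11.09 ± 0.51 in null and 10.23 ± 0.25 in wild type cochleae (SD, n = 3 each), a difference of 0.86 ± 0.30 (SE) or 1.82-fold, with a 95% interval from 0.11 to 1.62 (limma, unadjusted p = 0.0318, adjusted p = 0.971). It was 0.57 without null replicate 3. The unadjusted p in limma was above 0.05 on the deposited values (0.0964), with the number in the sample titles as a block (0.0555), without the arrays of title number 14 (0.0707), without wild type replicate 2 (0.0929) and without wild type replicate 3 (0.0712). The exact permutation test over arrays, two-sided, gave p = 0.1 for Oc90 and for Otog, the smallest value that 3 against 3 arrays allow, and 0.3 to 0.4 for Tectb, Tecta and Otoa.

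**Figure D1:**
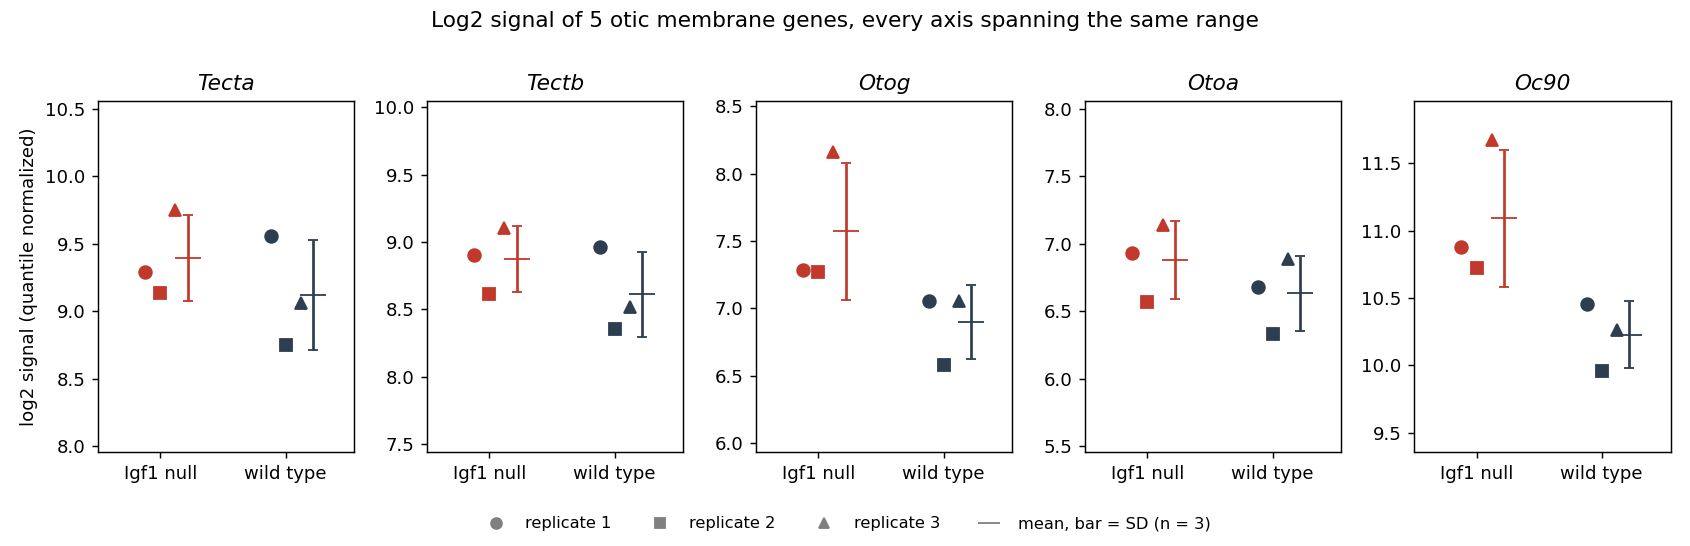
Log2 signal after quantile normalization (vertical axis, each panel spanning the same range) of the 5 members in Igf1 null and wild type pools. Symbols are replicates and bars the mean and SD (n = 3). The null pools of Otog and Oc90 lie above all their wild type pools, while those of Tecta, Tectb and Otoa overlap them.

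Otog and Oc90 were the members whose genotypes did not overlap, 2 of 5, where 5.53% of all probe sets had every null array above every wild type array. In the other direction 0 members and 5.3% of all probe sets did not overlap. On the deposited values, before normalization, the genotypes overlapped for all 5 members, and 1.01% of all probe sets had every null array above every wild type array. Null replicate 1 had the lowest median of the deposited arrays. Oc90 then differed by 0.75 and Otog by 0.54, Tecta by 0.15, Tectb by 0.14 and Otoa by 0.098. Of the 11313 probe sets above the median level, the difference of Oc90 was the 3rd highest and that of Otog the 11th highest, while Tecta, Tectb and Otoa were 476th, 537th and 653rd. A difference of at least 0.5 was found at 43 of these 11313 probe sets (0.38%), and at 2341 of all 22626 probe sets (10.3%).

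**Figure D2:**
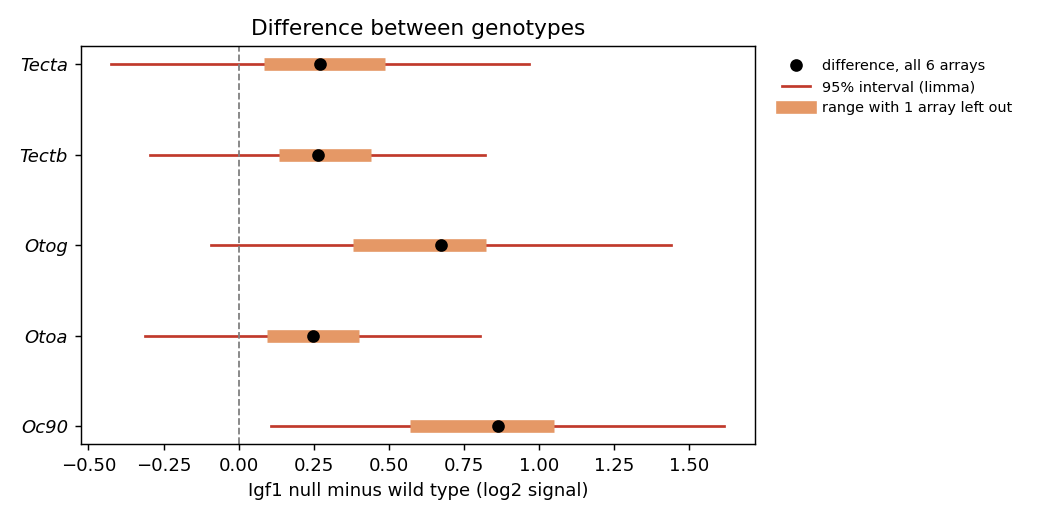
Igf1 null minus wild type difference in log2 signal (horizontal axis) for each member. Points are the difference over 6 arrays, thin lines the 95% interval from limma and thick bars the range of the difference with 1 array left out. Every bar lies above 0, and the interval of Oc90 alone does not reach 0.

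Differences between members on the same array do not depend on a shift common to a whole array, and 5 pairs were compared in this way. Oc90 minus Tecta was 1.59, 1.59 and 1.92 in null replicates 1 to 3, against 0.90, 1.22 and 1.20 in wild type replicates 1 to 3. The genotypes did not overlap, with a mean of 1.70 ± 0.19 in null and 1.11 ± 0.18 in wild type arrays (SD, n = 3 each, exact permutation p = 0.1, adjusted over the 5 pairs 0.25). With the values as deposited the genotype difference was 0.60, against 0.59 here, and with 1 array left out it lay between 0.48 and 0.66.

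Oc90 minus Tectb was likewise higher on each null array, with means of 2.21 ± 0.31 in null and 1.61 ± 0.13 in wild type arrays (SD, n = 3 each, exact permutation p = 0.1, adjusted 0.25). Otog minus Tecta averaged -1.82 ± 0.21 in null and -2.22 ± 0.25 in wild type arrays (SD, n = 3 each, exact permutation p = 0.2, adjusted 0.333), and its genotypes overlapped. That difference of 0.40 was 0.27 without wild type replicate 1. Tectb minus Tecta averaged -0.52 ± 0.12 in null and -0.51 ± 0.10 in wild type arrays (SD, n = 3 each, exact permutation p = 1). Otoa minus Tecta averaged -2.51 ± 0.13 in null and -2.49 ± 0.35 in wild type arrays (SD, n = 3 each, exact permutation p = 1). The exact permutation test of a pair cannot go below 0.1 with this number of arrays, and a p of 1 does not show that a pair is equal. Both of these near-zero genotype differences, -0.0084 and -0.025, changed sign when some single arrays were left out.

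**Figure D3:**
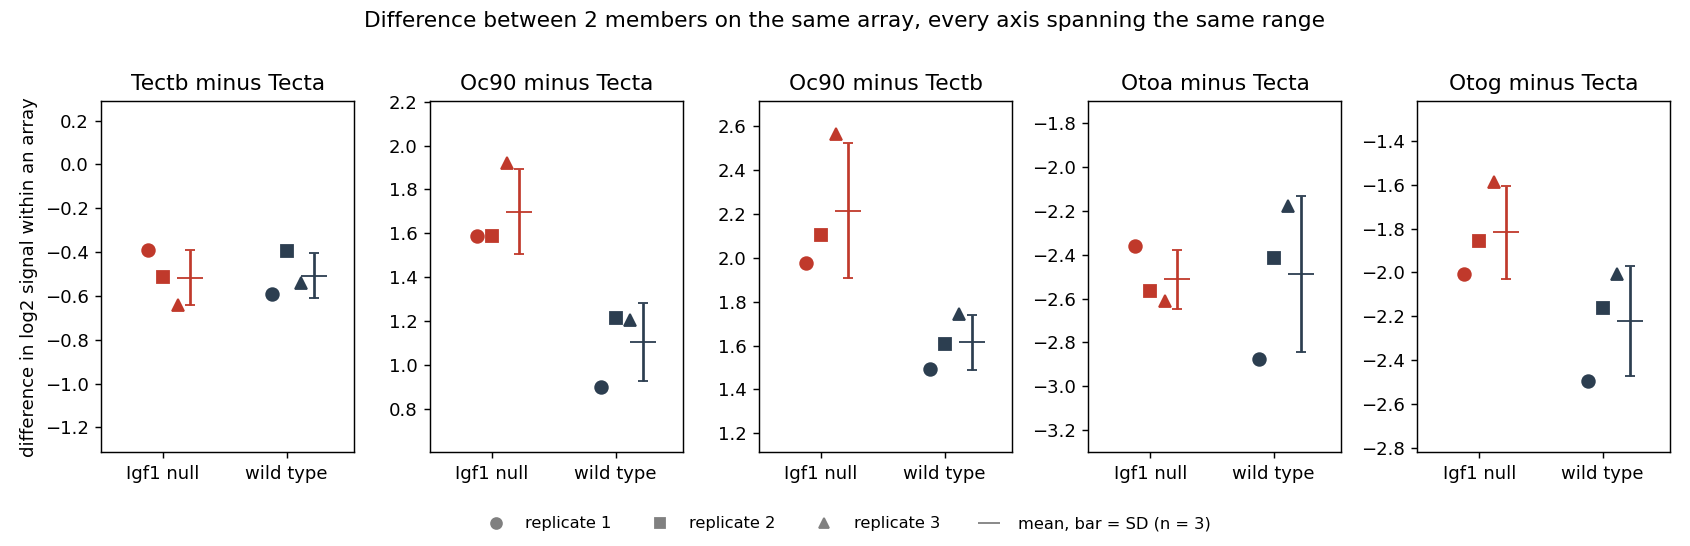
Difference in log2 signal between 2 members on the same array (vertical axis, each panel spanning the same range) in Igf1 null and wild type pools, with the mean and SD (n = 3). Oc90 stands higher relative to Tecta and Tectb on every null array, while Tectb minus Tecta has means of -0.52 and -0.51.

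The 5 members shared their highest and lowest arrays. All 5 were highest in null replicate 3 and lowest in wild type replicate 2, and in all 5 the lowest null array was replicate 2. The share of all probe sets with these extremes was not counted. From the lowest to the highest array Oc90 spanned 3.27-fold, Otog 2.98-fold, Tecta 2.00-fold, Otoa 1.74-fold and Tectb 1.69-fold. With each genotype centred on its own mean, Tecta and Tectb had a Pearson r of 0.97 and Otog and Oc90 of 0.98 over the 6 arrays. The other 8 pairs of members ran from 0.66 to 0.89. These values describe 6 arrays that share normalization and tissue content, and are given with no test. Of 10425 other single-gene probe sets above the median level, 0.825% followed Tecta and 0.854% followed Tectb more closely than these followed each other. For Otog and Oc90 these shares were 0.691% and 0.528%. For the other 8 pairs they ran from 4.96% to 17.7%.

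The probe sets closest to each member in this measure had r above 0.99. They were those of Lztfl1, Sys1 and Clu for Tecta, Rnf2, Paxbp1 and Tex15 for Tectb, Dmtf1, Gm9222 and Nfatc3 for Otog, Surf2, Eps8 and Sh3d19 for Otoa, and Rai1, Cemip2 and Qser1 for Oc90. Among them the null minus wild type difference ran from -0.18 for Cemip2 to 0.28 for Tex15. These are the highest of 10425 candidates over 6 arrays, and no test was made of them.

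Markers of the tissue's cell types varied across the same arrays. The summed linear signal of 7 measured neuron markers was 2761 to 5793 in null arrays and 2718 to 9777 in wild type arrays, and its highest value belonged to wild type replicate 2, the array lowest for all 5 members. The 14 supporting cell and greater epithelial ridge markers summed to 3747 to 4220 in null and 3558 to 4526 in wild type arrays, also lowest in wild type replicate 2. For 15 general epithelial genes, a list added after the data were seen, the sums were 2864 to 3389 in null and 2066 to 3726 in wild type arrays, with the extremes in wild type replicates 2 and 1. Epithelial markers had a higher null mean in 13 of 15 genes with a median difference of 0.28. Over all genes the null mean was higher in 6354 of 12393, with a median of 0.0062. Because the epithelial list was chosen with values known, the choice may have raised its count and median. Grhl2, 1 of its genes, was among the highest differences above the median level, at 0.54. The epithelial median was 0.041 without wild type replicate 2, 0.52 without wild type replicate 1 and 0.14 on the deposited values. Supporting cell markers had a higher null mean in 9 of 14, with a median of 0.065 that was -0.094 on the deposited values, -0.060 without null replicate 3 and 0.15 without null replicate 2. The lowest p among them was that of S100a1, a calcium-binding protein gene, with a difference of 0.37 ± 0.17 (SE). In both lists 0 genes passed the adjusted threshold, at an unadjusted p under 0.05 there were also 0, and no marker separated the genotypes. Of 6 red cell markers 4 were measured, 2 lower and 2 higher in mean null signal, with a median difference of -0.024. Their summed linear signal was 124 to 196 in null and 237 to 328 in wild type arrays, without overlap. That sum is weighted towards Alas2, which had the highest signal of the 4. Slc4a1, the anion exchanger gene of red cells, averaged 3.43 ± 0.18 in null and 5.20 ± 0.25 in wild type cochleae (SD, n = 3 each), a difference of -1.76 ± 0.18 (SE, limma unadjusted p = 0.00014, adjusted p = 0.455), and was above background on 4 of 6 arrays. Alas2, a heme synthesis gene of red cells, averaged 7.11 ± 0.37 in null and 7.90 ± 0.22 in wild type cochleae (SD, n = 3 each) and did not overlap either. Every null array lay below every wild type array for these 2 genes and for 5.3% of all probe sets. The 2 higher ones, Hba-a1 (0.74 ± 1.11) and Epb42 (0.78 ± 1.25, SE), were not above background on any array. The part of tissue and blood content in the members' differences was not tested.

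Vestibular genes were read beside Oc90. Otop1, Otol1 and Nox3 were not matched to a single-gene probe set, so of 8 markers 5 were measured, Oc90 included. The homeobox gene Hmx3, which patterns the vestibule, had a log2 signal of 4.85, 4.76 and 5.26 in null replicates 1 to 3, against 4.48, 4.34 and 4.07 in wild type replicates 1 to 3. It was above background on all 6 arrays, though only just in wild type replicates 2 and 3, where background was 4.22 and 3.94. Hmx3 did not overlap between genotypes, with a difference of 0.66 ± 0.19 (SE, limma adjusted p = 0.895). Hmx2 and Gbx2 were above background on 1 array each, and differed by 0.70 ± 0.65 and 1.47 ± 0.85 (SE). Dlx5, a gene also used in bone, differed by -0.39 ± 0.28 (SE). Of the 5 markers 4 had a higher null mean, Oc90 itself among them, and 1 a lower one. The median difference, 0.70, was the value of Hmx2, which was above background on 1 array only. The median was 0.15 with a pseudocount of 32, 0.41 on the deposited values and 1.05 without null replicate 2. Without Oc90 the summed signal of the other 4 vestibular markers was 122 to 135 in null and 113 to 185 in wild type arrays, so the groups overlapped. That linear sum is weighted towards Dlx5, which had the highest signal of the 4. Whether vestibular tissue was present in the pools, and its part in the Oc90 and Otog values, was not tested.

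**Figure D4:**
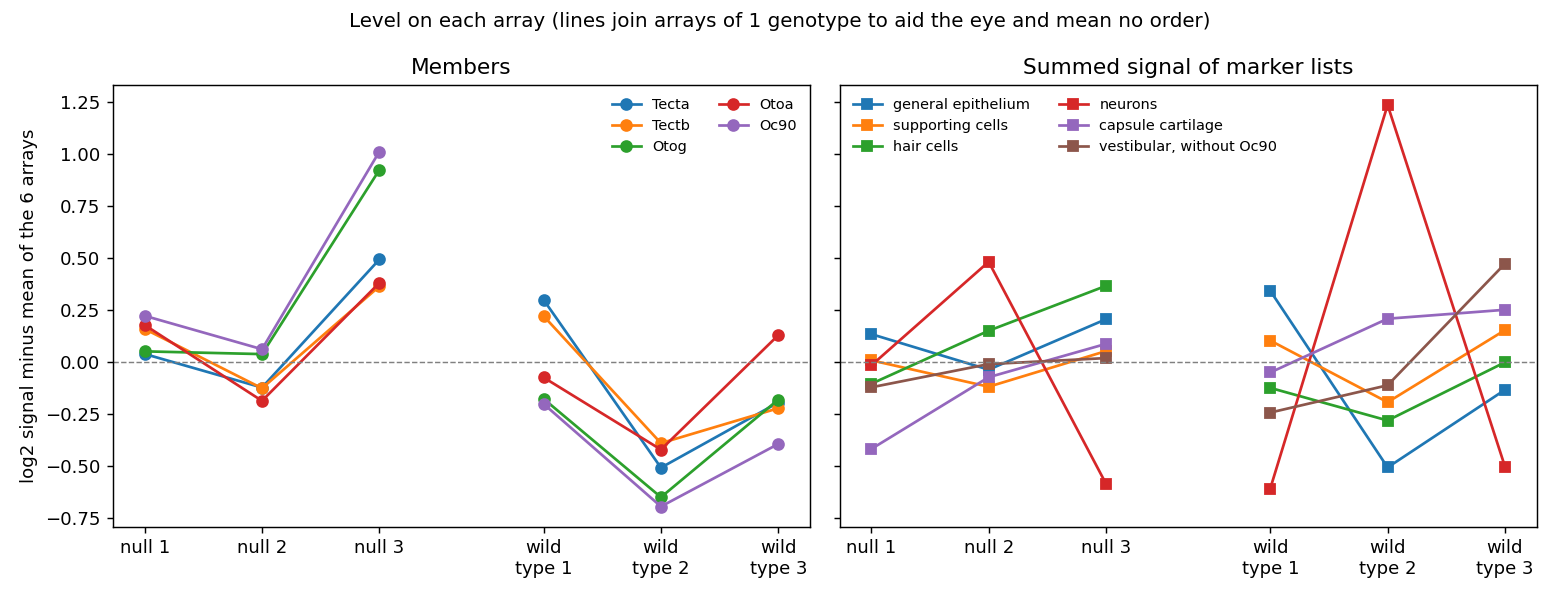
Log2 signal of each member (left) and log2 of the summed linear signal of marker lists (right), each minus its mean over the 6 arrays, for every array. All 5 members are lowest in wild type replicate 2, the array with the highest neuron signal, and highest in null replicate 3.

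Hair cells lie beneath the tectorial membrane, and their markers summed to 452 to 627 in null arrays and 400 to 486 in wild type arrays. Of 15 measured hair cell markers 12 had a higher null mean, with a median of 0.23. That median was -0.031 on the deposited values, 0.56 with array weights, 0.60 without null replicate 1 and 0.55 without null replicate 3. It was 0.065 among probe sets above the 40th percentile of level and 0.056 with a pseudocount of 32. Only 4 of the markers were above background on all 6 arrays. Of these, Otof differed by 0.16 ± 0.27, Myo7a by 0.065 ± 0.11, Myo6 by 0.031 ± 0.16 and Atoh1 by -0.12 ± 0.12 (SE). For 4 genes (Slc26a5, Myo15, Espn and Ush1c) every null array lay above every wild type array, as for 5.53% of all probe sets. Slc26a5, Espn, Barhl1 and Pcdh15 were not above background on any array, so their differences are between values at background. Myo15 and Ush1c were above background on 5 of 6 arrays each. Myo15, a hair bundle motor protein gene, averaged 5.08 ± 0.12 in null and 4.25 ± 0.27 in wild type cochleae (SD, n = 3 each), and 0 of the 15 passed the adjusted threshold in limma, against 4 higher at an unadjusted p under 0.05, as were 2.42% of all probe sets.

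Collagens of the tectorial membrane had lower mean signal in the null pools. Of 9 listed partner genes 7 were measured, with 6 lower and 1 higher in mean null signal, a median of -0.26 and 0 past the adjusted threshold (0 also at an unadjusted p under 0.05). The median was -0.039 with median centring, -0.096 without null replicate 1 and -0.16 without wild type replicate 3. Ceacam16 and Otogl, the glycoprotein genes of this list nearest to the members in role, were not matched to a single-gene probe set. The type IX collagen gene Col9a1 was lower on each null array, with 12.43 ± 0.14 in null and 12.69 ± 0.11 in wild type cochleae (SD, n = 3 each) and a difference of -0.26 ± 0.13 (SE). Col9a3 differed by -0.49 ± 0.27, Col11a2 by -0.41 ± 0.29 and Col2a1, the type II collagen gene, by -0.19 ± 0.15 (SE). The higher one was Strc, the stereocilin gene, which was not above background on any array. The same collagen genes are expressed in the cartilage of the otic capsule, whose 7 markers all had a lower null mean, with a median of -0.35 and a summed signal of 14196 to 20161 in null and 18324 to 22591 in wild type arrays. The capsule median was -0.15 without null replicate 1 and -0.54 without null replicate 3. Matn3, a cartilage matrix gene, was lower on each null array, with a difference of -0.93 ± 0.22 (SE, limma adjusted p = 0.887). The part of the capsule in the collagen values was not tested.

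Genes of otoconia and of the endolymph, the fluid that bathes the gels, were mixed. Of 9 listed genes 6 were measured, with 4 higher and 2 lower in mean null signal, a median of 0.14, 0 past the adjusted threshold and 1 at an unadjusted p under 0.05. That 1 was Sparc, a calcium-binding matrix protein gene of bone and otoconia, with a difference of -0.32 ± 0.13 (SE). Slc26a4, which encodes the anion exchanger pendrin, differed by 0.70 ± 0.35, Sparcl1 by -0.21 ± 0.12 and Noxo1, a subunit gene of the oxidase needed for otoconia in mice, by 0.66 ± 0.60 (SE). The median was -0.017 on the values as deposited, -0.022 with wild type replicate 1 left out and 0.011 with null replicate 2 left out.

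Zona pellucida domain genes and the proteases of such proteins numbered 14, of which 13 were measured, with 6 higher and 7 lower, a median of -0.062 (-0.12 to 0.073 with 1 array left out), 0 past the adjusted threshold and 2 at an unadjusted p under 0.05. Those 2 were Hpn and Dmbt1. Hpn encodes hepsin, a membrane serine protease whose loss disturbs the tectorial membrane in mice. It had means of 5.18 ± 0.15 in null and 4.67 ± 0.07 in wild type cochleae (SD, n = 3 each), did not overlap between genotypes and differed by 0.51 ± 0.13 (SE, limma adjusted p = 0.887). Dmbt1 was not above background on any array, and 3 genes of the list (Zp1, Zp2 and Zp3) also belong to the background genes. Zp1 differed by -0.75 ± 0.31 and Zp3 by 0.74 ± 0.52 (SE), values at or near background.

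RNA quality was read from the control probe sets, as the log2 signal at the 3′ end minus that at the 5′ end of a transcript. For beta-actin this was 0.89, 0.86 and 1.08 in null replicates 1 to 3, against 0.76, 0.71 and 0.80 in wild type replicates 1 to 3. It was highest in null replicate 3 and lowest in wild type replicate 2, as were the members, and did not overlap between genotypes (exact permutation p = 0.1). For Gapdh it averaged 0.35 ± 0.17 in null and 0.25 ± 0.06 in wild type arrays, for the transferrin receptor 2.17 ± 1.01 in null and 3.35 ± 1.06 in wild type arrays, and for pyruvate carboxylase 3.34 ± 1.03 in null and 3.33 ± 0.55 in wild type arrays (SD, n = 3 each). These 3 overlapped between genotypes (exact permutation p = 0.5, 0.2 and 1). The order of arrays seen for beta-actin was not shared by the other controls. The transferrin receptor was lowest in null replicate 3 (1.21) and highest in wild type replicate 1 (4.41). Gapdh and pyruvate carboxylase were highest in null replicate 3 (0.52 and 4.38) but lowest in null replicate 1 (0.18 and 2.32). The part of RNA quality in the members' differences was not tested.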

How the data were processed

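RNA from 6 pools of cochleae was labelled with biotin and hybridised to Affymetrix arrays, per the labels. The authors deposited 1 value per probe set and array, here read as log2 signal from its range (the log base is inferred). How the authors summarised probes or corrected background is not stated in the labels or the file. Groups and replicate numbers come from the titles. The 64 control probe sets were left out of 22690. The design named quantile normalization, chosen because earlier work on this table had found the arrays on different scales. All 22626 probe sets were fitted with genotype as the one term, two-sided, by lmFit and eBayes of limma 3.58.1 under R 4.3.3, with Benjamini-Hochberg adjustment at 0.05. Lists use the probe set with the highest mean per gene. The 3 pools are labelled biological replicates, and their number limits the precision. The procedure was tested on simulated data. Alternatives were the deposited values, median centring, blocks, a trended variance, array weights (statmod 1.5.0), a filter, a pseudocount of 32 and leaving out arrays.

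Named were every probe set of the members and of Igf1, the 4 genes with the smallest p in each of the 3 lists of related genes, the 3 probe sets closest to each member, and markers of cell types where a result was set beside them. Which markers to name was chosen after their values were seen. Members and lists were chosen with earlier results of these data known, and the general and non-sensory epithelial lists were added after values were seen. Symbols come from the platform annotation, updated through a RefSeq table of GRCm38.p6.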

Additional observations from a re-analysis of the deposited data

How the results depend on the processing

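The null minus wild type difference kept its sign in all 15 alternatives for each of the 5 members, and 0 members passed the adjusted threshold in limma in any of 17 settings, thresholds of 0.1 and 0.25 included. The replicate number as a replicate block left the differences as they were (Oc90 0.86, adjusted p = 0.827, Otoa 0.25 with an SE of 0.10 against 0.22, limma unadjusted p = 0.0869 against 0.313, adjusted p = 0.847) and changed no call. The numbers were not taken as pairs, since same-numbered arrays had correlations of 0.040, 0.10 and 0.021 between deviations over all probe sets (0.19, 0.38 and 0.14 above the median level), although 5 of 6 arrays correlated best with the same-numbered array of the other genotype. Members at an unadjusted p under 0.05 numbered 0 with the deposited values, the title number (14 or 16, of unstated meaning) as a block or without the arrays of title number 14, 2 with a trended variance or the filter at the 40th percentile, and 0 to 1 with 1 array left out, against 1. Members whose genotypes did not overlap numbered 0 with the deposited values, 4 without title number 14 and 2 to 4 with 1 array left out, against 2, while the share of all probe sets was 1.01%, 18.5% and 9.07% to 11.4%, against 5.53%. With 1 array left out the genotype difference of Tectb minus Tecta ran from -0.070 to 0.055 and that of Otoa minus Tecta from -0.22 to 0.13, while those of Oc90 with Tecta and with Tectb and of Otog with Tecta kept their sign in all 12 alternatives. The otoconia median was -0.017 with the deposited values, -0.063 with the filter, 0.0076 without title number 14 and -0.022 to 0.20 with 1 array left out, against 0.14. Probe sets at an unadjusted p under 0.05 numbered 673 with the filter, where fewer were tested, against 1130. The other causes were not tested.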

Other observations

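Non-sensory epithelium of the inner ear was read from 8 genes, a list added after Cldn9 and Lrp2 had been seen among the highest differences. Of these 6 were measured (Slc26a4 is also in the otoconia list), 5 with a higher null mean and 1 with a lower one. The median difference was 0.52 (0.31 without wild type replicate 2, 0.34 with a pseudocount of 32). In limma 0 passed the adjusted threshold, and 2 were higher at an unadjusted p under 0.05, as were 2.42% of all probe sets. Cldn9 and Lrp2 are part of these counts, the median and the sum below, which were thus raised by how the list was chosen. Gata2 differed by 0.13 ± 0.16 and Lmx1a by -0.50 ± 0.97 (SE). Cldn9, a tight junction gene, averaged 6.43 ± 0.11 in null and 5.92 ± 0.16 in wild type cochleae (SD, n = 3 each) and did not overlap between genotypes. Otx2, a homeobox gene, averaged 4.10 ± 0.19 in null and 2.70 ± 0.72 in wild type cochleae (SD, n = 3 each) and did not overlap either, but was above background on 3 of 6 arrays only. Lrp2, an endocytic receptor gene, averaged 6.89 ± 0.30 in null and 6.36 ± 0.54 in wild type cochleae (SD, n = 3 each), and its groups overlapped. The summed signal of the 6 genes was 407 to 549 in null arrays and 328 to 424 in wild type arrays, lowest in wild type replicate 2 and highest in null replicate 3, as for the members.

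Spiral ligament genes had a higher null mean in 4 of 5 cases, with a median difference of 0.18 (0.045 without wild type replicate 2 or without null replicate 3, 0.056 on the deposited values, 0.29 without null replicate 1) and 0 past the adjusted threshold in limma (0 also at an unadjusted p under 0.05). Coch, which encodes cochlin, a secreted matrix protein of fibrocytes, averaged 8.96 ± 0.21 in null and 8.60 ± 0.31 in wild type cochleae (SD, n = 3 each), and its groups overlapped.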
